A study of Mus musculus with 16 samples.

Results

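Described here are 9 genes that make, sense or relay the signal of catecholamines in sorted mouse cardiomyocytes (CMs). They comprise the adrenergic receptor genes *Adrb1*, *Adra1a* and *Adra1b*, the catecholamine synthesis genes *Th*, *Ddc*, *Dbh* and *Pnmt*, and the adenylyl cyclase genes *Adcy5* and *Adcy6*. Chosen was every probe that the scanner files name after one of these genes, which gave 14 probes of 55681 on the microarray, or 9 of 34821 gene names.

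RNA of 4 groups was hybridised, with 4 microarrays in each group and 16 in all. EL and EH came from CD1 wild-type hearts at embryonic day (E) 15.5 and were flow sorted as ERBB-2+/ITGA6low and ERBB-2+/ITGA6high cells. PL and PH came from CD1 wild-type hearts at postnatal day (P) 2, where beads first removed non-myocytes and the remaining cells were sorted as ITGA6low or ITGA6high. ERBB-2 is a receptor tyrosine kinase on CMs and ITGA6 is the integrin α6 chain. Each experiment pooled 20 to 30 embryonic or 15 newborn hearts, at least 50000 cells were sorted per fraction, and 10 ng of RNA was used, so each value is a mean over many animals. No gene was deleted and no drug was given in any group. E15.5 and P2 samples differed also in the sorting strategy and lay on separate slides, and these cannot be told apart from the stage. Between 35.7% and 46.5% of the probes were well above background on a microarray, the highest share belonging to sample 2 of EH.

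Catecholamines are made from tyrosine in steps. Tyrosine hydroxylase (*Th*) makes L-DOPA, aromatic L-amino acid decarboxylase (*Ddc*) makes dopamine, dopamine beta-hydroxylase (*Dbh*) makes noradrenaline and phenylethanolamine N-methyltransferase (*Pnmt*) makes adrenaline. In the heart, beta-adrenergic receptors couple to a stimulatory G protein that activates adenylyl cyclase, and the cyclic AMP formed activates protein kinase A, which raises the rate and force of contraction. Alpha-1 receptors couple to another G protein and phospholipase C.

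The start regions are shown for the members with a window that held one of the searched motifs. RefSeq windows (GRCm38.p6) matched 6 of the 9 genes, with 8 start sites, and *Adra1a*, *Pnmt* and *Adcy6* had no entry. Each sequence gives the 250 bases before the start, 5′ to 3′ on the gene's strand. Capitals mark the cyclic AMP response element (CRE) TGACGTCA, its half-site TGACG (reverse CGTCA), which the full element contains, and the nuclear receptor half-site AGGTCA (reverse TGACCT), all searched on both strands.
Dbh, chr2:27165257-27165506, plus strand: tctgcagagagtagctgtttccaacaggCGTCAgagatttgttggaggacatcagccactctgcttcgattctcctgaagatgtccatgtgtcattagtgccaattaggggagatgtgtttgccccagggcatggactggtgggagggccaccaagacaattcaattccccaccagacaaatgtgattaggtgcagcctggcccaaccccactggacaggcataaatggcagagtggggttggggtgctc
Ddc, chr11:11898145-11898394, minus strand: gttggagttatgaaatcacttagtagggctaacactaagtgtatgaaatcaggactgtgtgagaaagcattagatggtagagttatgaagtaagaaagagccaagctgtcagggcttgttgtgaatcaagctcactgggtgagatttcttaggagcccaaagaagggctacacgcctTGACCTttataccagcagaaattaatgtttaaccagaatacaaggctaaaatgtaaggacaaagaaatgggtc
Th, chr7:142899996-142900245, minus strand: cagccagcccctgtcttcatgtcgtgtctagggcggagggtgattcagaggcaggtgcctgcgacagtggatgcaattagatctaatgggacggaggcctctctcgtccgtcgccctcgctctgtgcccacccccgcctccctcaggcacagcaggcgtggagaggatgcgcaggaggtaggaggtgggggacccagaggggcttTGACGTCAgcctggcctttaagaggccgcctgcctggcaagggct
Adrb1, chr19:56721867-56722116, plus strand: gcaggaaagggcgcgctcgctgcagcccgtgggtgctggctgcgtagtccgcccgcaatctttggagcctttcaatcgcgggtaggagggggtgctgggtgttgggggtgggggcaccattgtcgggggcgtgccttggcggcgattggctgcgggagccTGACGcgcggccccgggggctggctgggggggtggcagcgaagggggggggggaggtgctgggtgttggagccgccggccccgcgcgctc
The full element lay 37 bases before the *Th* start. A half-site lay 217 bases before the *Dbh* start and 85 bases before the *Adrb1* start, and the nuclear receptor half-site lay 67 bases before the more upstream of both *Ddc* starts. Of 32851 windows of the same length, 1.55% held the full element, 17.8% the half-site and 14.0% the nuclear receptor half-site. Both windows of *Adra1b*, the second of *Ddc* and that of *Adcy5* held none of these letters and are not shown. The matches describe letters and were not measured as binding.

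All 7 CM marker genes (*Tnnt2*, *Actn2*, *Nkx2-5*, *Myh6*, *Ttn*, *Actc1*, *Tnni3*) were well above background on each of the 16 microarrays, so the labelled cell type was borne out by its defining markers. Of 7 atrial markers, 7 passed the test as higher in PH than PL and 6 as higher in EH than EL, and all 5 ventricular markers were lower in both ITGA6high fractions. Of the members, 11 of the 14 probes cleared the background in all 16 samples, and 13 did so in all 4 samples of at least 1 group. *Adra1a* had its only probe above background on 0 of 16 microarrays.

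**Figure D1:**
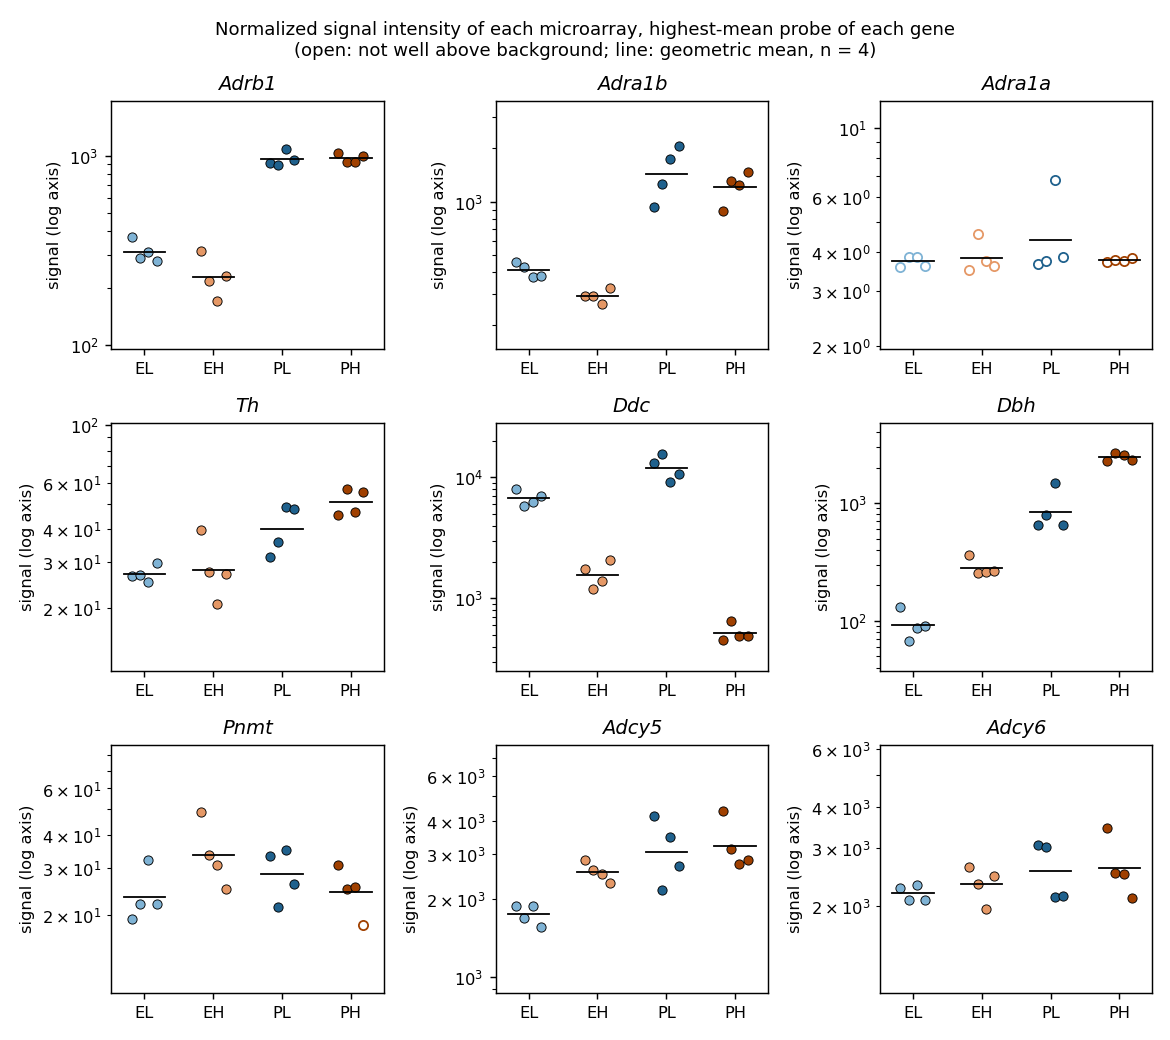
Normalized signal intensity (log axis) of each of the 16 microarrays by group for the probe with the highest mean signal of each of the 9 genes, with lines at the geometric mean of 4 microarrays and open circles where the signal was not well above background. *Ddc* sits between 452 and 648 in PH and between 9182 and 15757 in PL, *Dbh* rises from EL over EH and PL to PH without overlap, and *Adra1a* is open throughout.

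Between the fractions of a stage, 2 of the 4 synthesis genes, *Dbh* and *Ddc*, passed the test at both stages. At the probe with the highest mean signal of each gene, 1 of 9 genes was higher (*Dbh*) and 1 was lower (*Ddc*) in EH than in EL, with an adjusted p of at most 0.05 in limma's test over all probes. Of all 55681 probes, 4.27% were called higher and 3.83% lower, and of the 22250 probes detected in at least 1 group 9.77% and 8.93%. In PH against PL the same 2 genes passed, *Dbh* higher and *Ddc* lower, beside 6.15% of all probes called higher and 5.41% lower (14.1% and 12.1% of detected probes). Both genes changed at least 3-fold in EH against EL, for which the term differentially expressed is used here, and *Ddc* did in PH against PL. Of all probes 1.17% were differentially expressed upwards and 0.454% downwards in the first comparison, and 1.73% and 0.916% in the second. The median log2 fold-change of the 9 genes was 0.05 in EH against EL and 0.01 in PH against PL, beside -0.02 and -0.01 over all probes. Same-numbered E15.5 fractions were taken as pairs by a rule on detected probes, which is given with the processing. With the replicate block 4 genes passed in EH against EL, with *Adra1b* (adjusted p = 0.0461) and *Adcy5* (adjusted p = 0.0420) in addition.

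**Figure D2:**
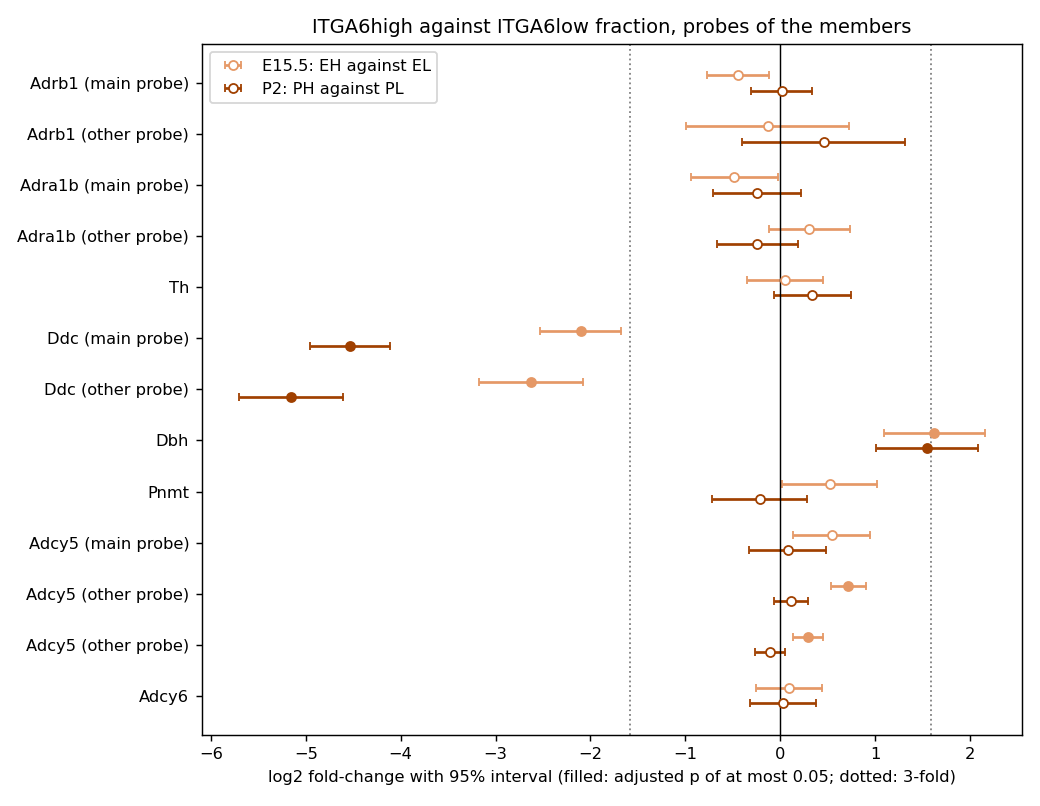
Log2 fold-change of the ITGA6high against the ITGA6low fraction for 13 probes of 8 members, at E15.5 (light) and P2 (dark), with 95% intervals, filled circles for an adjusted p of at most 0.05 and dotted lines at 3-fold. Both *Ddc* probes lie far left of 0 and further left at P2, *Dbh* lies near the upper 3-fold line at both stages, and the other probes lie within 3-fold.

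*Ddc* encodes the decarboxylase that makes dopamine from L-DOPA, and also serotonin from its precursor. It had the largest difference between fractions of the 9 genes at both stages. Its brighter probe matched the end of the transcript (mm9 chr11:11714106-11714165, minus strand, from base 1956 of the transcript). The 4 samples of EL gave signals of 8097, 5852, 6285 and 6997, and those of EH gave 1734, 1206, 1403 and 2092. The 4 samples of PL gave 13135, 15757, 9182 and 10669, and those of PH gave 452, 648, 487 and 492. Every ITGA6high sample was below every ITGA6low sample at either stage, and the order from low to high was PH, EH, EL and PL, with no overlap between neighbours. Of all probes, 9.08% were lower in EH than EL without overlap and 6.27% lower in PH than PL. Between the stages, 9.54% were lower in PH than EH and 10.4% higher in PL than EL without overlap. No share was computed for the order of all 4 groups. EL averaged 6808 ± 981 and EH 1609 ± 389 (SD, n = 4), a 4.29-fold lower level (log2 fold-change -2.10, standard error 0.197, adjusted p = 1.17e-05). PL averaged 12186 ± 2885 and PH 519.9 ± 87.6, a 23.2-fold lower level (log2 fold-change -4.53, adjusted p = 4.34e-09). From E15.5 to P2 the signal thus rose 1.77-fold in the ITGA6low fraction (adjusted p = 0.00819) and fell 3.06-fold in the ITGA6high fraction (adjusted p = 5.08e-05). The difference between the 2 fraction effects was -2.43 on the log2 scale (standard error 0.279, 95% interval -3.03 to -1.83, adjusted p = 0.000237), beside 1.35% of all probes with a lower and 1.81% with a higher interaction (3.01% and 4.19% of detected probes). Of the 5 ventricular markers, 3 were lower by their interaction (list median -2.02) and 4 were lower in PH than EH. Their summed signals were 141017 to 225682 in EH and 22877 to 35106 in PH. In PL against EL, where *Ddc* rose, 1 of the 5 markers was higher and 1 lower (median -0.08). Their sums there were 460350 to 481273 (EL) and 328989 to 366581 (PL). The part of these markers in the *Ddc* values was not tested.

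The other *Ddc* probe lay near the start of the coding part and is shown because it reads another part of the gene, through another of its RefSeq transcripts (mm9 chr11:11776262-11776321, minus strand, from base 320).
Ddc probe: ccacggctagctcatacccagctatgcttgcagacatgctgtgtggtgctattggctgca
Its signal was 714, 613, 659 and 839 in EL and 129, 81.9, 92.7 and 172 in EH. It was 2202, 2816, 1729 and 1778 in PL and 49.9, 87.4, 61.0 and 44.5 in PH. The fractions did not overlap at either stage here either, as for 9.08% (EH below EL) and 6.27% (PH below PL) of all probes. The level was 6.16-fold lower in EH (adjusted p = 1.56e-05) and 35.6-fold lower in PH (adjusted p = 1.32e-08). Its interaction was -2.53 (standard error 0.360, adjusted p = 0.00128). Both probes passed in all 4 comparisons of groups with the same direction, whereas PH and EH overlapped at this probe (log2 fold-change -0.96, adjusted p = 0.0172). Within the slides, EH against EL gave -2.20 at the brighter probe on the slide with 3 EH and 2 EL samples and -2.11 on that with 1 EH and 2 EL samples, with no test.

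*Dbh* encodes the enzyme that makes noradrenaline from dopamine, and it ran opposite to *Ddc* between the fractions. It had 1 probe (mm9 chr2:27038665-27038724, plus strand, from base 2222 of the transcript). EL gave signals of 131, 67.6, 87.2 and 90.6, and EH gave 359.5, 255, 259.6 and 266. PL gave 653, 788, 1468 and 652, and PH gave 2277, 2673, 2572 and 2304. All 4 groups were apart from each other, in the order EL, EH, PL and PH. Of all probes, 7.02% were higher in EH than EL without overlap and 6.54% higher in PH than PL. Between the stages, 10.4% were higher in PL than EL and 14.9% higher in PH than EH without overlap. The share with all 4 groups apart was not computed. EL averaged 94.1 ± 26.7 and EH 285 ± 49.9 (SD, n = 4), 3.08-fold higher (log2 fold-change 1.62, standard error 0.248, adjusted p = 0.000753). PL averaged 890.2 ± 391 and PH 2456 ± 196, 2.93-fold higher (log2 fold-change 1.55, adjusted p = 0.000661), which fell just short of 3-fold. The fraction effect was of similar size at both stages, with a difference of -0.08 (95% interval -0.83 to 0.68, adjusted p = 0.96).

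The spread of *Dbh* in PL came from sample 4, at 1468. The same sample had the highest summed signal of the 7 atrial markers in PL, at 89292, where the other PL samples had 18931, 46784 and 25874, and its part in the *Dbh* value was not tested. Without PL sample 4 the log2 fold-change of PH against PL was 1.82 and the gene was differentially expressed. Without EH sample 2 the log2 fold-change of EH against EL was 1.51 and without EL sample 3 it was 1.48, both under 3-fold, with the test still passed. Within these slides EH against EL gave 1.41 and 1.76, the latter from 1 EH sample.

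*Dbh* also had the largest change between the stages, 9.16-fold higher in PL than EL (log2 fold-change 3.20, adjusted p = 6.70e-07) and 8.69-fold higher in PH than EH (log2 fold-change 3.12, adjusted p = 1.15e-06). In PL against EL, 6 of the 9 genes were higher (*Adrb1*, *Adra1b*, *Dbh*, *Th*, *Ddc*, *Adcy5*) and 0 were lower, beside 9.7% and 10% of all probes and 21.3% and 23.1% of detected probes. Of these, *Adrb1*, *Adra1b* and *Dbh* were differentially expressed, beside 1.6% of all probes upwards and 2.15% downwards. In PH against EH, 4 genes were higher (*Adrb1*, *Adra1b*, *Dbh*, *Th*) and 1 was lower (*Ddc*), beside 9.12% and 8.37% of all probes and 19.7% and 18.9% of detected probes. All but *Th* were differentially expressed, beside 1.3% of all probes upwards and 2.1% downwards. *Ddc* in PH against EH stayed at 3-fold or more under 18 of 24 alternatives and *Adrb1* in PL against EL under 21 of 24, and both passed the test under all 24. Among those that took them under 3-fold were leaving out EH sample 2, EH sample 8 or PH sample 2 for *Ddc*, and EL sample 8 or PL sample 4 for *Adrb1*. The median log2 fold-change of the 9 genes was 0.80 in PL against EL and 0.33 in PH against EH, beside 0.01 and 0.03 over all probes. Over the 8 detected genes it was 0.81 and 0.60, beside -0.01 and 0.02 over detected probes.

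**Figure D3:**
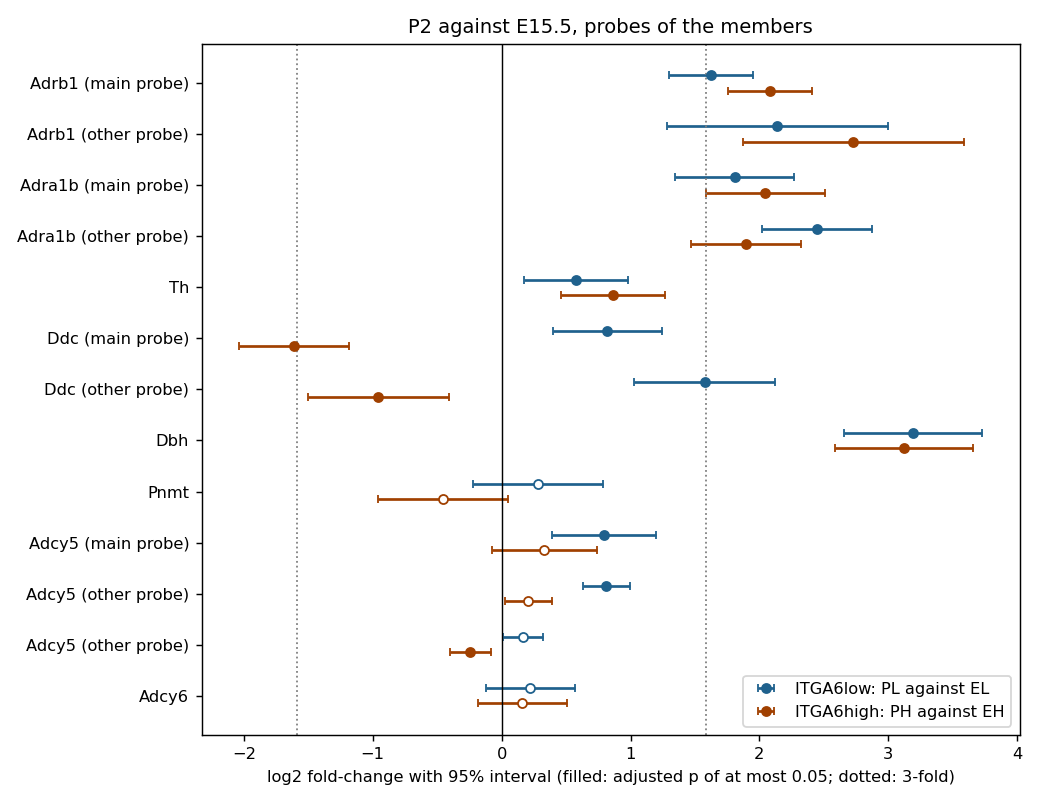
Log2 fold-change of P2 against E15.5 for 13 probes of 8 members, in the ITGA6low fraction (PL against EL, blue) and the ITGA6high fraction (PH against EH, brown), with 95% intervals, filled circles for an adjusted p of at most 0.05 and dotted lines at 3-fold. Both probes of *Adrb1* and of *Adra1b* and the *Dbh* probe lie right of the 3-fold line in both fractions, and *Ddc* lies on opposite sides of 0.

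*Th* encodes the first and rate-limiting enzyme of the route. Its probe (mm9 chr7:150078703-150078762, minus strand, from base 1675) gave 26.5, 26.6, 25.0 and 29.7 in EL and 39.8, 27.4, 20.6 and 26.8 in EH. It gave 31.2, 35.6, 48.8 and 47.9 in PL and 45.2, 56.8, 46.7 and 55.4 in PH. All were well above background, but they lay near the bottom of what the microarrays measured. *Th* was 1.49-fold higher in PL than EL (log2 fold-change 0.58, adjusted p = 0.0436) and 1.82-fold higher in PH than EH (log2 fold-change 0.87, adjusted p = 0.00444). The first of these did not pass when the microarrays were scaled to their 75th percentile (adjusted p = 0.0885), nor without any single EL or PH sample, without EH sample 3 or 8, or without PL sample 4 or 5 (adjusted p between 0.0505 and 0.124). The fraction differences did not pass, at 0.05 in EH against EL (95% interval -0.35 to 0.45) and 0.34 in PH against PL (95% interval -0.06 to 0.74).

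*Pnmt* makes adrenaline from noradrenaline, and none of its differences passed the test. Its probe (mm9 chr11:98248798-98248857, plus strand, from base 382) gave 19.2, 22.1, 32.1 and 22.1 in the EL samples and 48.8, 33.5, 30.8 and 25.1 in the EH samples. The PL samples gave 33.4, 21.3, 35.2 and 26.1, and the PH samples 30.7, 25.1, 25.5 and 18.3. The groups overlapped throughout, and 1 PH sample was not well above background. Its log2 fold-change was 0.52 in EH against EL (95% interval 0.01 to 1.02, adjusted p = 0.26) and -0.22 in PH against PL (95% interval -0.72 to 0.29).

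*Adrb1*, the main beta-adrenergic receptor of CMs, was higher at P2 in both fractions and did not pass between them. Its brighter probe (mm9 chr19:56799215-56799274, plus strand, from base 2353) gave 373, 286, 310.3 and 278 in EL and 315, 218, 171 and 229.96 in EH. It gave 909, 896, 1082 and 953 in PL and 1027, 925, 925 and 992 in PH. All 8 P2 samples were above all 8 E15.5 samples. Of all probes, 10.4% were higher in PL than EL and 14.9% higher in PH than EH without overlap. No share was computed for all 8 P2 against all 8 E15.5 samples. The mean was 312 ± 43.1 (EL), 233 ± 60.0 (EH), 960.1 ± 85.0 (PL) and 967 ± 51.1 (PH) (SD, n = 4). *Adrb1* was 3.09-fold higher in PL than EL (adjusted p = 3.40e-06) and 4.24-fold higher in PH than EH (adjusted p = 5.49e-07). PH against PL gave a log2 fold-change of 0.01 with a 95% interval of -0.31 to 0.34. EH against EL gave -0.44 (95% interval -0.77 to -0.12, adjusted p = 0.107), and it passed without EH sample 2 (log2 fold-change -0.60, adjusted p = 0.0094) and with the slide as a block (log2 fold-change -0.52, adjusted p = 0.0391).

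A dimmer *Adrb1* probe in the coding part (mm9 chr19:56797242-56797301, plus strand, from base 380) is shown as the second reading of this receptor.
Adrb1 probe: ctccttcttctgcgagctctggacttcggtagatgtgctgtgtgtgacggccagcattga
At E15.5 it cleared the background on 1 of 4 EL and 3 of 4 EH microarrays, with means of 16.03 ± 3.99 and 16.3 ± 7.48. At P2 it did so on all 8, with means of 69.8 ± 14.6 (PL) and 97.9 ± 30.1 (PH). It too was higher in PL than EL (log2 fold-change 2.14, adjusted p = 0.00131) and in PH than EH (log2 fold-change 2.73, adjusted p = 0.000223).

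*Adra1b*, an alpha-1 receptor, had the same order of stages. Its brighter probe (mm9 chr11:43589067-43589126, minus strand, from base 2028) gave 455, 428, 377 and 381 in EL and 291, 293, 263 and 326 in EH. It gave 929, 1262, 1734 and 2068 in PL and 886, 1314, 1238 and 1477 in PH. All 8 P2 samples again lay above all 8 E15.5 samples. The share of all probes without overlap was 10.4% for PL above EL and 14.9% for PH above EH. None was computed for all 8 against all 8. The rise was 3.50-fold in PL against EL (log2 fold-change 1.81, adjusted p = 2.97e-05) and 4.13-fold in PH against EH (log2 fold-change 2.05, adjusted p = 1.31e-05). Its second probe (mm9 chr11:43588147-43588206, minus strand, from base 2948) gave 2.45 and 1.90 on the log2 scale, and both passed. The fractions at E15.5 did not overlap at the brighter probe (log2 fold-change -0.48, adjusted p = 0.25), as for 9.08% of all probes in this direction, whereas the other probe gave 0.31, so the 2 probes disagreed in sign. PH against PL gave -0.25 (95% interval -0.71 to 0.22) at the brighter probe.

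*Adra1a*, the other alpha-1 receptor of the list, was not well above background in any sample. Its probe (mm9 chr14:67352013-67352072, plus strand, from base 3990) gave means of 3.73 (EL), 3.86 (EH), 4.51 (PL) and 3.76 (PH), and no fold-change is given.

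*Adcy5* and *Adcy6* encode the main adenylyl cyclases of CMs. *Adcy5* had 3 probes within the last part of 1 transcript (mm9 chr16:35304041-35304100, chr16:35304398-35304457 and chr16:35304551-35304610, plus strand, from bases 4465, 4822 and 4975). The brightest, in the middle, gave 1878, 1691, 1892 and 1569 in EL and 2825, 2592, 2497 and 2316 in EH. It gave 4186, 2177, 3490.2 and 2694 in PL and 4387, 3123, 2731 and 2840.4 in PH. All EH samples were above all EL samples, as for 7.02% of all probes, and the P2 fractions overlapped. Its log2 fold-change was 0.54 in EH against EL (95% interval 0.14 to 0.95, adjusted p = 0.113) and 0.80 in PL against EL (adjusted p = 0.00725).

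The probe next to it, from base 4465, spread less, with means of 1090.4 ± 95.6 (EL), 1792 ± 171 (EH), 1912 ± 138 (PL) and 2064 ± 97.4 (PH) (SD, n = 4). Here EL stood below the other groups. EH was 1.64-fold higher than EL (log2 fold-change 0.72 with a standard error of 0.0847, adjusted p = 8.82e-05) and PL was 1.75-fold higher than EL (log2 fold-change 0.81, adjusted p = 9.73e-06). PH against PL gave 0.11 (95% interval -0.07 to 0.29), and the difference between the fraction effects was -0.60 (adjusted p = 0.0128), whereas the brightest probe gave -0.46 (adjusted p = 0.566) and the third -0.41 (adjusted p = 0.0506). The third probe, from base 4975, gave means of 232 (EL), 285 (EH), 260.4 (PL) and 241 (PH). It was higher in EH than EL (log2 fold-change 0.30, adjusted p = 0.0216) and lower in PH than EH (log2 fold-change -0.24, adjusted p = 0.0349), where the other 2 probes gave 0.33 and 0.21 without passing. In PL against EL the third probe gave 0.17 (adjusted p = 0.151) and did not pass.

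*Adcy6* gave means of 2185 ± 119 (EL), 2343 ± 287 (EH), 2588 ± 522 (PL) and 2646 ± 569 (PH) (SD, n = 4) at its probe on mm9 chr15, from base 5617. No difference passed. The log2 fold-change was 0.09 in EH against EL (95% interval -0.25 to 0.44) and 0.03 in PH against PL (95% interval -0.31 to 0.38), and 0.22 in PL against EL (95% interval -0.12 to 0.57).

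Other genes of the route were counted as whole lists, whichever way they moved. None of the 6 other adrenergic receptor genes cleared the background in all 4 samples of any group, and 1 of them passed as lower at each stage in the ITGA6high fraction. Of 8 other adenylyl cyclases, 3 were higher and 1 lower in EH than EL, and 1 was higher and 2 lower in PH than PL. The list medians were 0.44 and -0.23 (0.93 and -0.85 over the 4 detected ones). *Adcy1*, a calcium-stimulated cyclase, had a mean of 17.4 (EL), 255 (EH), 15.99 (PL) and 449 (PH), with 2 of 4 EL and 1 of 4 PL samples well above background. This was 14.8-fold higher in EH than EL (log2 fold-change 3.89, adjusted p = 2.15e-08) and 28.2-fold higher in PH than PL (log2 fold-change 4.82, adjusted p = 5.92e-10). *Adcy9* went the other way, with 423 (EL), 182 (EH), 1086 (PL) and 88.9 (PH), which is -1.25 on the log2 scale at E15.5 (adjusted p = 0.000182) and -3.61 at P2 (adjusted p = 5.79e-09), and an interaction of -2.36 (adjusted p = 6.52e-05). *Adcy4* averaged 161 ± 109.7 in EH, where the endothelial markers described further on were also detected, against 17.9 in EL, where 1 of 4 samples was above background. The difference passed the test (adjusted p = 0.00221), and the part of other cells in it was not tested. The gene was above background in 0 of 4 PL and 0 of 4 PH samples.

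Of 16 genes of catecholamine storage, uptake, breakdown and cofactor synthesis, 2 were higher and 2 lower in EH than EL, and 3 were higher and 4 lower in PH than PL. The medians were -0.08 and 6.94e-05 (-0.14 and -0.17 over the 9 detected ones). *Gch1* makes the first step towards tetrahydrobiopterin, the cofactor of tyrosine hydroxylase. It had means of 580.4 (EL), 168 (EH), 597 (PL) and 207 (PH), which is -1.81 on the log2 scale at E15.5 (adjusted p = 3.54e-05) and -1.52 at P2 (adjusted p = 8.11e-05). A second probe, not above background in any EH or PH sample, passed as lower in both ITGA6high fractions (adjusted p = 0.00802 and 0.0162). *Maoa*, which breaks down catecholamines, was higher in both ITGA6high fractions, with log2 fold-changes of 0.90 (adjusted p = 0.0133) and 1.71 (adjusted p = 5.09e-05). *Slc6a2*, the noradrenaline transporter of sympathetic nerves, was above background on 0 of 16 microarrays.

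Downstream of the receptors, 2 of 10 G protein alpha subunits were higher and 0 lower in EH than EL, and 2 were higher and 1 lower in PH than PL. The medians were -0.07 and 0.13 (0.07 and 0.18 over the 7 detected ones). *Gnao1*, an inhibitory type of alpha subunit, had means of 536 (EL), 1746 (EH), 193 (PL) and 2453 (PH). It was 3.26-fold higher in EH than EL (adjusted p = 6.99e-05) and 13.1-fold higher in PH than PL (adjusted p = 2.58e-08), with an interaction of 2.01 (adjusted p = 0.001). Its second probe did not pass in EH against EL (log2 fold-change 0.83, adjusted p = 0.201). That probe passed as higher in PH than PL (adjusted p = 5.36e-05), with no PL sample above background. Of 7 receptor kinases and arrestins on the microarray, 0 were higher and 2 lower in EH than EL (*Adrbk1* and *Grk5*), and 0 passed in PH against PL, with medians of 0.15 and 0.29. Both names were taken after their values were seen.

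Of 9 subunits and inhibitors of protein kinase A, 2 were higher and 0 lower in EH than EL, and 3 were higher and 1 lower in PH than PL, with medians of 0.00 and 0.05. The regulatory subunit gene *Prkar1b* was higher in both ITGA6high fractions, with log2 fold-changes of 1.19 (adjusted p = 0.000126) and 1.68 (adjusted p = 2.91e-06), and its second probe passed at both stages too. Of 7 anchoring proteins, 1 was higher and 1 lower at E15.5, and 3 were higher and 1 lower at P2, with medians of 0.16 and 0.14. The anchoring protein gene *Akap12* fell between the stages in both fractions and kept a mean of 106 in PH against 21.4 in PL (log2 fold-change 2.45, adjusted p = 4.13e-05). Its dimmer probe was not above background at P2.

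Of 15 phosphodiesterases, which degrade cyclic nucleotides, 5 were higher and 1 lower in EH than EL, and 5 were higher and 2 lower in PH than PL, with medians of 0.27 and 0.10 (0.27 and 0.19 over the 13 detected). *Pde2a* had the largest difference among them at both stages, with means of 116 ± 21.9 (EL), 1574 ± 602 (EH), 322 ± 93.8 (PL) and 3727 ± 399 (PH) (SD, n = 4). This was 13.0-fold higher in EH than EL (adjusted p = 1.06e-06) and 11.8-fold higher in PH than PL (adjusted p = 5.18e-07). *Pde8a* was 4.72-fold higher in EH than EL (adjusted p = 8.27e-06), and its PH against PL log2 fold-change was 0.10, with an interaction of -2.14 (adjusted p = 0.000808). A second probe was not above background in any sample. *Pde10a* was not above background in any ITGA6low sample and was at least 2.05-fold higher in EH (adjusted p = 4.71e-05), where the bound takes the lowest signal well above background of each EL microarray as the level of the dim group where this was higher than the probe itself. Another *Pde10a* probe passed as higher in EH than EL too (adjusted p = 0.00772), and a further one was not above background in any sample.

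Of 8 targets of protein kinase A, 0 were higher and 2 lower in EH than EL, and 1 was higher and 4 lower in PH than PL. The medians were -0.21 and -0.18 (-0.07 and -0.37 over the 7 detected ones). *Pln*, the brake on the calcium pump SERCA2A that protein kinase A releases, had means of 2409 (EL), 950.3 (EH), 9750.4 (PL) and 1045 (PH). It was 2.57-fold lower in EH than EL (adjusted p = 0.000409) and 9.16-fold lower in PH than PL (adjusted p = 8.73e-08), with an interaction of -1.83 (adjusted p = 0.00184). *Ppp1r1a*, a phosphatase inhibitor that protein kinase A switches on, was 3.11-fold higher in PH than PL (adjusted p = 2.90e-06). Between the stages 6 of the 8 targets were higher and 1 lower in PL than EL, and 5 were higher and 0 lower in PH than EH, with medians of 1.05 and 0.31.

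**Figure D4:**
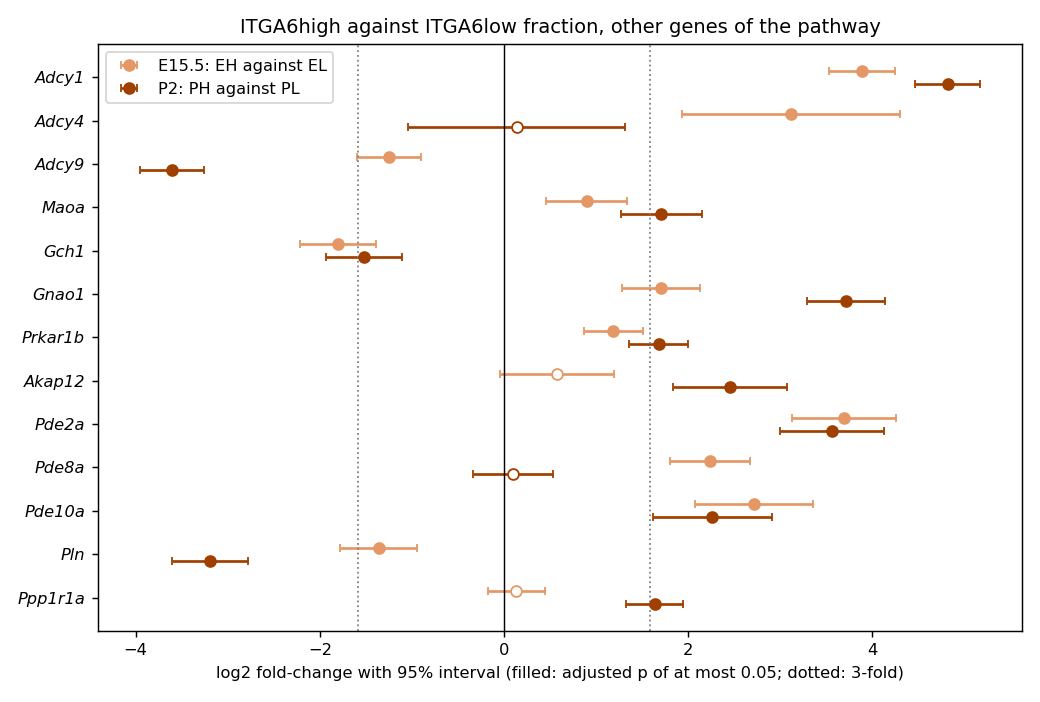
Log2 fold-change of the ITGA6high against the ITGA6low fraction for 13 other pathway genes, with 95% intervals, at E15.5 (light) and P2 (dark). Shown are those that changed at least 3-fold and passed the test at 1 stage or both. The brighter group had to be well above background in all of its samples. Filled circles passed the test, dotted lines mark 3-fold. *Adcy1*, *Gnao1* and *Pde2a* lie to the right and *Adcy9*, *Gch1* and *Pln* to the left of 0 at both stages.

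As a description of likeness, the probes whose signals ran most closely with each member over the 16 microarrays were listed by Pearson's r. All points share the 4 groups, so a high r reflects group differences as well as samples. *Ddc* ran closest with *Tmem164* (r = 0.986), *Irx4*, a ventricular transcription factor gene (r = 0.984), and *Hddc2* (r = 0.979). *Dbh* ran closest with *Mgll* (r = 0.985), *Rxrg* (r = 0.984) and *Fitm2* (r = 0.981). The named genes nearest to *Adrb1* were *Slc2a4*, the insulin-responsive glucose transporter gene, and *Chchd10* (r = 0.982 for both), and those nearest to *Adra1b* were the mitochondrial genes *Ndufa2* (r = 0.983) and *Cox7a1* (r = 0.981), followed by *Cyhr1*. The nearest named genes had a lower r for the other members, 0.943 for *Th* (*1700037C18Rik*), 0.906 for *Adcy5* (*Plekhh3*), 0.886 for *Adcy6* (*Itga3*) and 0.737 for *Pnmt* (*Cnih2*).

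Markers of other cell types moved with some of these groups, and their part in the results was not tested. In bulk RNA, fewer cells of a type and less RNA per cell cannot be told apart. The list nearest to the synthesis enzymes is that of sympathetic neurons and chromaffin cells. Of its 12 genes, 2 were above background on each EL microarray, 2 to 7 in EH, 1 to 2 in PL and 2 in PH, and the neuronal genes *Ret* and *Stmn2* were above background on 0 of 16. In EH against EL 2 of the 12 passed as higher, *Phox2a* and *Elavl4*, and in PH against PL *Elavl4* passed as higher and *Snap25* as lower. *Elavl4* averaged 28.1 (EL), 46.4 (EH), 13.8 (PL) and 60.4 (PH), the PL samples not above background. At this probe it was thus higher in the fractions in which *Dbh* was higher. A second *Elavl4* probe did not pass in EH against EL (log2 fold-change 0.35, adjusted p = 0.699). That probe passed as higher in PH than PL (adjusted p = 0.00609), with no sample of either group above background. The summed signal of the 12 genes was 1873 to 2395 (EL), 2432 to 2929.9 (EH), 3192 to 9154 (PL) and 2201 to 2370.0 (PH), nearly all of it from *Snap25*. Of 8 endothelial and endocardial markers, 2 to 3 were above background in EL, 7 to 8 in EH and 1 to 2 at P2, with summed signals of 1064 to 1219 (EL), 1006 to 2819 (EH), 342 to 1554 (PL) and 476.5 to 1059 (PH), with *Kdr* the largest part of each sum. A second *Kdr* probe was higher in EH than EL (log2 fold-change 4.03, adjusted p = 3.23e-05) and at least 9.50-fold higher in PH than PL (adjusted p = 4.11e-06), where the brighter probe passed in neither. *Cdh5*, *Emcn* and *Tie1* were above background in all EH samples and in 0 of the other 12. Fibroblast markers summed to 12833 to 22360.1 (EL), 5437 to 10462 (EH), 523 to 1627 (PL) and 545 to 801 (PH), with *Col1a2* the largest part of each sum and with 7 to 8 of 8 above background at E15.5 and 4 to 6 at P2. Epicardial markers fell from 1623 to 2998 in EL and 404 to 2142 in EH to 18.4 to 92.4 in PL and 58.7 to 151 in PH. Pacemaker and conduction markers summed to 1823 to 2819 (EL), 7348 to 12659 (EH), 1273 to 2119 (PL) and 6651 to 8538 (PH), so the fractions did not overlap at either stage, as for *Dbh* and *Adcy1*. Of these 9 genes, 4 were higher and 1 lower in EH than EL and 2 were higher and 1 lower in PH than PL. The largest part of each sum came from *Cpne5* or *Gjc1*, and *Hcn4* and *Isl1* were above background on 0 of 16 microarrays. Smooth muscle and pericyte markers summed to 2703 to 3571 (EL), 1790 to 2137 (EH), 4615 to 5296 (PL) and 1018 to 1384 (PH). The sum had the same order of groups as *Ddc*, with *Abcc9* or *Cspg4* its largest part. Of these 7 genes, 5 were above background in each EL sample, 6 in EH and 3 in PL and PH. Unlike the sum, 3 of them were higher and 1 lower in EH than EL, and 0 were higher and 2 lower in PH than PL. Erythroid markers, led by *Hba-a1*, summed to 3649 to 30453 (EL), 5334 to 34021 (EH), 357 to 884 (PL) and 245 to 347 (PH), and 5 of 6 leukocyte markers were lower in PH than EH. Of the 7 CM markers, 5 were higher in PL than EL and 2 in PH than EH, with medians of 0.57 and 0.23.

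**Figure D5:**
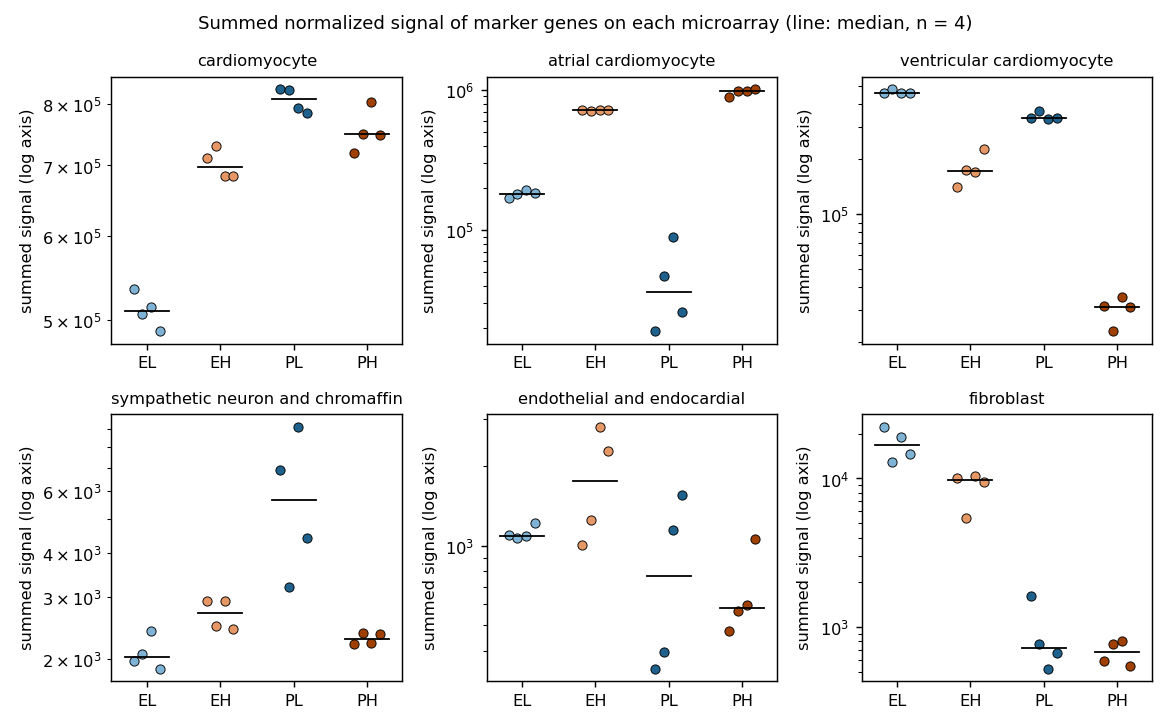
Summed normalized signal (log axis) of the marker genes of 6 cell types on each of the 16 microarrays by group, with a line at the median of 4. The atrial sum is highest in PH and lowest in PL, where sample 4 has 89292, the sympathetic and chromaffin sum is highest in PL, and the fibroblast sum is lower in all P2 than in all E15.5 samples.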

How the data were processed

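Cardiomyocyte RNA of 16 samples was hybridised to Agilent 1-colour microarrays of 60-base probes. Per the submitters' processing notes, the scans were read with Agilent Feature Extraction 10.7.3.1. The deposited scanner files hold each spot's background-subtracted processed signal as a linear intensity with flags for signals well above background. The authors also deposited quantile normalized log2 values, which served as an alternative. Samples were grouped by the GEO labels, and 0 columns of other samples were present.

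Control and outlier spots were left out, spots of a probe were averaged, and log2 intensities were quantile normalized over 55681 probes. A group-means model was fitted (limma 3.58.1, R 4.3.3) with Benjamini-Hochberg adjustment over all probes. A probe passed at an adjusted p of at most 0.05, and was differentially expressed if it also changed at least 3-fold. Intervals are 95% intervals of the fit, not adjusted. Printed signals and their SD are on the linear scale, and fold-changes are differences of mean log2 signal. The interaction is the PH against PL minus the EH against EL log2 fold-change. Signals of different probes are not comparable as levels. The procedure was tested on simulated data. P-values measure the spread between these samples, each a pool of hearts.

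A gene was represented by the probe with the highest mean log2 signal. Other probes of the members and of the named pathway genes are given beside it. Of the other pathway genes, those were named that were differentially expressed between fractions at this probe, provided that the brighter group was well above background in all of its samples. The 3 probes nearest to each detected member were taken by Pearson's r. Members and lists were chosen with earlier results of these data known. The list genes *Grk2* and *Grk3* are on the microarray as *Adrbk1* and *Adrbk2*. Promoter windows came from RefSeq (GRCm38.p6), and probe positions (mm9) from the scanner files.

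Same-numbered fractions were checked for pairing by correlating their deviations from the group means over detected probes. At E15.5 r was 0.255, 0.189, 0.450 and 0.379 for the 4 numbers, all above 0.1, so these were taken as pairs. At P2 r was 0.375, 0.176, -0.03 and 0.542. Over all probes the E15.5 values were -0.01, 0.02, 0.174 and 0.233. Alternatives were scaling to the 75th percentile, normexp with an offset of 50, the deposited values, detected probes alone, a floor, slide and replicate blocks, the median over a gene's probes, the methods' test and leaving out each sample. For the fraction comparisons and the interaction the slide was a fixed term. Between the stages it was a random block (correlation -0.0566). That block cannot separate slide from stage, because each slide held samples of a single stage. The number of microarrays limits the precision.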

Additional observations from a re-analysis of the deposited data

Results flagged for a closer look

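In the embryonic and neonatal fractions, the *Ddc* difference between ITGA6high and ITGA6low cells was larger at P2, by -2.43 on the log2 scale at the brighter probe (adjusted p = 0.000237) and -2.53 at the coding probe (adjusted p = 0.00128) in limma's interaction test. Of the 5 ventricular markers, 3 had a lower interaction too, with a list median of -2.02, and their part in the *Ddc* value was not tested. For *Adcy5* the interaction was -0.60 (adjusted p = 0.0128) at the probe from base 4465 of the transcript, where EL alone stood low, and the other 2 probes gave -0.46 (adjusted p = 0.566) and -0.41 (adjusted p = 0.0506).

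Single samples lay far from the other 3 of their group in 3 of 56 groups of 4 (by Dixon's ratio at its 95% critical value), and chance gives about 1 in 20. *Dbh* in EH sample 2 had a signal of 359.5, with the others between 255 and 266. The dimmer *Adrb1* probe in EH sample 2 had 5.16, not well above background, with the others between 18.9 and 20.8. The *Adra1a* probe in PL sample 4 had 6.78 with the others between 3.66 and 3.87, and none of these 4 was well above background.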

How the results depend on the processing

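The number of members passing in EH against EL was 2, and 4 with detected probes alone (with *Adcy5* and *Adrb1*) or with the replicate block (with *Adcy5* and *Adra1b*). In PH against PL and the interaction, the block moved no count of members by more than 1.5 times. The number differentially expressed in EH against EL was 2, and 1 with the 75th percentile, normexp or the slide block, and ranged from 1 to 2 when samples were left out, because *Dbh* came below 3-fold without EL sample 3 or EH sample 2. In PH against PL 2 members passed, and 4 with normexp, with *Th* and the undetected *Adra1a*. There 1 was differentially expressed, and 1 to 2 when samples were left out, with *Dbh* added without PL sample 4. The interaction passed for 1 member, and for 2 with the median over probes, with *Adcy5*. Where not stated the cause was not tested. *Adra1a*, below background in every sample, also passed as higher in PH against EH with the floor, which it did not as first fitted, and is left out of what follows. Signs of the other 8 genes turned only for values that did not pass. In EH against EL these were *Th* at -0.029 with the slide block and -0.12 to 0.20 with samples left out (lowest without EH sample 2), and *Adcy6* at -0.040 with the 75th percentile. In PH against PL with the 75th percentile they were *Adrb1* at -0.018, *Adcy5* at -0.057 and *Adcy6* at -0.080, and with samples left out *Adrb1* ranged from -0.018 to 0.072, *Adcy5* from -0.083 to 0.23 and *Adcy6* from -0.10 to 0.13. For the interaction, *Adra1b* was -0.16 with the median over probes, *Dbh* 0.33 with normexp, 0.014 with the slide block and -0.25 to 0.19 with samples left out, and *Adcy6* -0.20 to 0.039 with samples left out. Of the values for the 8 detected genes under alternatives, 931 kept direction and side of the threshold, 9 newly passed, 13 no longer passed (all *Th* in PL against EL) and 23 turned sign. The 75th percentile moved the median of all probes to -0.18 in EH against EL, -0.14 in PH against PL and 0.19 in both stage comparisons. The interaction has no counterpart in the methods' test, and no replicate block was run between stages, whose samples came from different hearts. Dim probes (*Th*, *Pnmt*, *Adra1a*, the second *Adrb1* probe) limit what could be detected.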

Other observations

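The following genes were chosen after their values were seen. *Adra1d*, an alpha-1 receptor gene, was well above background in 2 of 4 samples of EL and 2 of 4 of PL and in none of EH or PH. It was at least 1.86-fold lower in EH than EL (adjusted p = 0.000916) and at least 1.36-fold lower in PH than PL (adjusted p = 0.00317) by limma. Its second probe was not above background in any sample. *Adrb3*, a beta-receptor gene, was at least 2.39-fold higher in PH than EH (adjusted p = 0.00181), with 3 of 4 PH and 0 of 4 EH samples above background. Its second probe was above background in 3 of 4 EL, 1 of 4 EH and 0 of 8 P2 samples. That probe was lower in EH than EL (log2 fold-change -2.63, adjusted p = 0.00411) and at least 2.11-fold lower in PL than EL (adjusted p = 0.00156), so the probes differed in direction between the stages.

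*Chga*, which encodes a protein of catecholamine storage granules, was well above background in 3 of 4 EH samples and in none of the other groups, at least 2.66-fold higher in EH than EL (adjusted p = 0.0168). *Phox2a*, a transcription factor gene of noradrenergic neurons, had the same detection pattern and was at least 1.76-fold higher in EH than EL (adjusted p = 0.00193). *Snap25*, a gene of vesicle release, averaged 2001 (EL), 2555 (EH), 5850.4 (PL) and 2178 (PH), and was 2.48-fold lower in PH than PL (adjusted p = 0.0021). *Elavl4*, a neuronal RNA-binding protein gene, was at least 3.11-fold higher in PH than PL (adjusted p = 2.03e-06). Its second probe passed too (adjusted p = 0.00609), but was not above background in any sample of these groups.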
